A study of Mus musculus with 10 samples.

Results

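The Siglec receptors of hippocampal microglia were examined in aged 3xTg AD mice given glatiramer acetate (GA), a mixture of random polypeptides used against relapsing multiple sclerosis, or phosphate-buffered saline (PBS). The members were the 7 genes *Siglech*, *Cd33*, *Siglece*, *Siglecf*, *Siglecg*, *Cd22* and *Siglec1*, taken by symbol from the 55453 genes of the deposited count table. All 10 libraries came from female mice over 15 months of age, 5 treated with PBS and 5 with GA at 0.1 mg per week for about 8 weeks, and the paper's methods add that the first week held 2 injections. Every animal of both groups carried the 3xTg genotype, meaning human APP with the Swedish mutation and human tau P301L, both driven by the neuronal Thy1.2 promoter, together with a mutant presenilin 1 (M146V), so no library came from a nontransgenic mouse. By the paper's methods the animals were retired breeders of a homozygous colony. Microglia were sorted as CD45 intermediate, CD11b positive cells, and their RNA was amplified before sequencing. The sources used here do not say whether each library came from a single animal, so the *P* values measure the spread between these samples.

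Siglecs are cell surface lectins of the immunoglobulin superfamily that bind sialic acid, the sugar that caps many chains on glycoproteins and glycolipids of the animal's own cells. Most carry immunoreceptor tyrosine-based inhibitory motifs (ITIMs) in the cytoplasmic tail, which recruit the phosphatases SHP-1 and SHP-2 once Src family kinases have phosphorylated them, and so dampen activation. Siglec-H instead lacks such motifs and signals through the adaptor DAP12. In mouse brain *Siglech* is widely used as a marker of microglia, human CD33 is a risk gene for Alzheimer's disease, and CD22 has been studied as a brake on microglial phagocytosis.

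All but one of the 7 genes lie on mouse chromosome 7 (GENCODE M21 on GRCm38, all protein coding). *Siglecf* (chr7:43351341-43359531, plus strand), *Siglecg* (chr7:43408204-43418358, plus), *Cd33* (chr7:43524216-43544428, minus) and *Siglece* (chr7:43651070-43660161, minus) stand next to each other in a cluster. *Cd22* lies at chr7:30865402-30880342 on the minus strand, *Siglech* at chr7:55768178-55778925 on the plus strand, and *Siglec1* on chromosome 2 at chr2:131069220-131086765 on the minus strand. The 250 bases upstream of the transcription start are printed for 3 of them, 5′ to 3′ on the gene's strand, because *Siglech* had the highest level of the family and *Cd33* and *Siglecf* held the longest stretch of sequence shared by any pair of the members with an entry. The sequences come from RefSeq on GRCm38.p6, at chr7:55767934-55768183 for *Siglech* (plus), chr7:43533172-43533421 for *Cd33* (minus) and chr7:43351091-43351340 for *Siglecf* (plus). Capitals mark matches to GNGGAAGT, a short form of the site of PU.1, the transcription factor that macrophages and microglia depend on, and to GAGGAA, a short ETS family site, with both strands searched and TTCCTC the reverse of the latter.

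Siglech: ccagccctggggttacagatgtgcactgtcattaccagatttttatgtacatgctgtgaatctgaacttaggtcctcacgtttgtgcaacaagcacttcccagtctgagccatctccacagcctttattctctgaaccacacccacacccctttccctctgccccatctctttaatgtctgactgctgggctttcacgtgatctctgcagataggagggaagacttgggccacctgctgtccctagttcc
Cd33: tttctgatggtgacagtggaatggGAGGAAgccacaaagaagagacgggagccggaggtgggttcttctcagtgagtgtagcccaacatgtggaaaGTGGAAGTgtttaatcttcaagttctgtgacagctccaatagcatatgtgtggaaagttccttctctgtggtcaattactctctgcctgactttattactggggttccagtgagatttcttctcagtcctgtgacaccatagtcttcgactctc
Siglecf: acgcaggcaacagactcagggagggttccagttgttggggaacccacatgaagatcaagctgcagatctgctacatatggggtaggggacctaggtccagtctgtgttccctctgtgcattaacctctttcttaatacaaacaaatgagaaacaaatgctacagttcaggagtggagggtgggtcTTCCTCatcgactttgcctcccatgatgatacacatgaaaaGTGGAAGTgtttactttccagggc

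The *Siglech* window held neither motif. *Cd33* held GTGGAAGT starting 154 bases before the transcription start, and *Siglecf* held the same letters starting 24 bases before it. Both copies lie within a run of 16 identical bases, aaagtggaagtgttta, that occurs in 2 of the 32851 RefSeq windows of this length, namely the *Cd33* and *Siglecf* promoters. GNGGAAGT was chosen after the sequences were seen. It is found in 5.65% of those windows and GAGGAA in 23.3%, and a GAGGAA that goes on with GT counts for both. *Siglece* held 3 matches to GAGGAA and the first of 2 windows of *Siglecg* held 2, whereas *Cd22* held none. No window of a member held GAAA, any 2 bases and GAAA again, a short interferon response site found in 2.98% of windows. The RefSeq start of *Cd33* is 11257 bases from the GENCODE start. *Siglec1* is named only. A match describes letters in these windows and is not a measured site.

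Library totals ranged from 32332185 to 38764643 counts, mitochondrial genes took 0.129% to 0.180% of them, and all 9 markers of a microglia list passed the low-count filter. The libraries are named by their titles, and each title starts with a prefix whose meaning is not stated. All PBS libraries carry 388, whereas the GA libraries carry 394 (2 libraries) or 400 (3 libraries), so prefix and treatment cannot be told apart. Values are given as CPM, the reads of a gene scaled to a common library size, with the library totals adjusted by the trimmed mean of M values (TMM), a correction for differences in composition between libraries. In RNA from a sorted population, fewer cells of a type and less RNA per cell cannot be told apart.

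Levels of different genes were compared as CPM per kilobase of exon (RPKM), with exons of all transcripts merged. *Siglech* was far above the others at 599.8 ± 33.1 RPKM (SD, n = 10), which ranks 43 among 14348 genes with a length and put it at 79.8% of the summed RPKM of the 7 receptors (78.6% to 81.1% in single libraries). On this scale the microglial genes *Csf1r*, the receptor for the survival factors CSF1 and IL-34, and *P2ry12*, a purinergic receptor, had 2899 ± 167 and 2594 ± 196 RPKM (SD, n = 10). *Trem2*, a lipid receptor that also signals through DAP12, had 332 ± 28.2 RPKM (SD, n = 10), below *Siglech*.

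*Siglece*, an inhibitory receptor of the CD33-related group, and *Cd33* followed at 57.7 ± 5.23 and 57.2 ± 2.91 RPKM (SD, n = 10), more than 10-fold below *Siglech*. These neighbours did not differ beyond their spread, since *Siglece* was the higher in 5 of 10 libraries. With the length of the longest transcript in place of merged exons, *Cd33* moved up to 77.5 RPKM and was above *Siglece* in all 10 libraries, so their order depends on the gene model. *Siglecf*, best known from eosinophils and alveolar macrophages, had 23.9 ± 4.44 RPKM (SD, n = 10) and lay above *Cd22* in all 10 libraries.

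*Cd22*, the B cell coreceptor, had 9.21 ± 1.85 RPKM (SD, n = 10), and was above *Siglecg* in all 10 libraries. *Siglecg*, which restrains B-1 cells and responses to tissue damage, had 2.21 ± 0.368 RPKM (SD, n = 10). *Siglec1*, the sialoadhesin of resident tissue macrophages, was lowest at 1.16 ± 0.542 RPKM (SD, n = 10) and lay below *Siglecg* in 9 of 10 libraries. *Siglece* and *Cd33* were thus the only neighbours in the order that did not differ beyond their spread, apart from the single library in which *Siglec1* was above *Siglecg*.

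**Figure D1:**
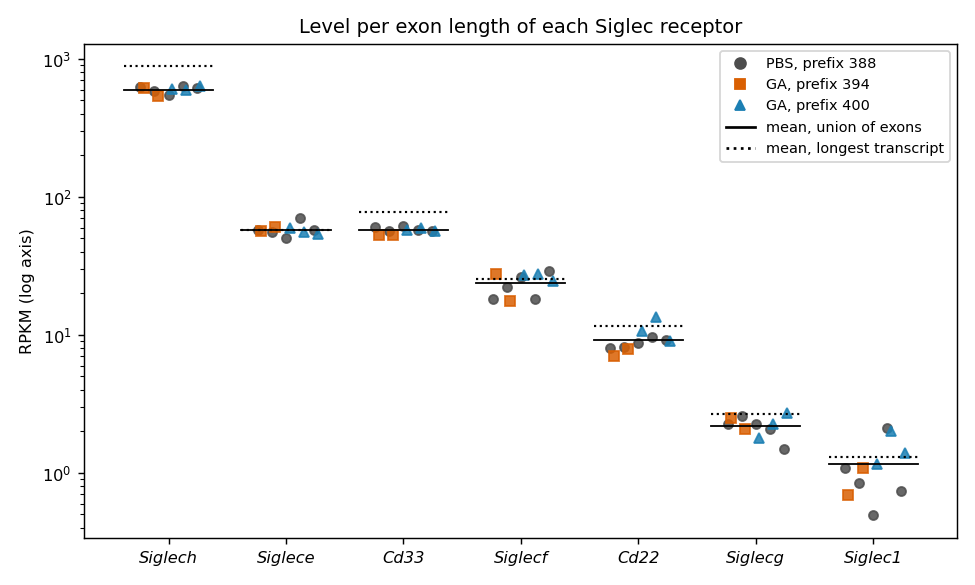
Level of each Siglec receptor in RPKM (log axis) in the 10 libraries, with symbols for title prefix, a solid line at the mean over merged exons and a dotted line at the mean over the longest transcript. *Siglech* sits near 600 RPKM, apart from the others, and *Siglece* and *Cd33* lie on the same level, 57.7 and 57.2 RPKM.

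GA and PBS libraries were then compared gene by gene, the question being whether 8 weeks of GA altered the expression of these receptors in microglia. No Siglec receptor passed the test in either direction. The 7 log2 fold changes ran from -0.07 for *Cd33* to 0.28 for *Siglec1*, 4 above and 3 below 0, with a median of 0.09 beside 0.0002 over the 14481 genes tested. All 7 genes passed the low-count filter. None was called by edgeR's quasi-likelihood test at an adjusted *P* under 0.05, where the background over all genes was 0% (0 of 14481). At an unadjusted *P* under 0.05 the same test counted 0 of the 7 and 833 of all genes, 5.75% (2.58% higher and 3.17% lower with GA). DESeq2 called 2 of 18894 genes, 0.0106%, *Gm1070* and *Dcstamp*, and neither is a Siglec. No member had GA and PBS values that stayed apart, which 0.891% of all genes did.

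*Siglech*, the DAP12-coupled member, measured 2107, 1964, 1863, 2170 and 2093 CPM in PBS libraries 388_1 to 388_5. In the GA libraries it measured 2065 and 1837 CPM in 394_1 and 394_2 and 2059, 1999 and 2135 CPM in 400_1 to 400_3. Only 394_2 fell outside the PBS range, just below it, and the groups overlapped otherwise. The means were 2039 ± 124 CPM with PBS and 2019 ± 113 CPM with GA (SD, n = 5 each), from 61001 to 82989 reads per library. The log2 fold change was -0.01 (SE 0.06, adjusted *P* = 0.984 by edgeR's quasi-likelihood test), with a 95% interval of -0.14 to 0.11. That interval spans folds of 0.906 to 1.08, so of the 7 genes this and *Cd33* were the most narrowly bounded. An exact permutation test, two-sided, that reassigned the libraries to the groups in every possible way gave *P* = 0.794, where the lowest value it can reach is 0.00794. The log2 fold change turned sign without 388_4 (0.0092) or 394_2 (0.0183).

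*Cd33*, the receptor that names the CD33-related group, measured 471.6, 436.8, 477.5, 447.1 and 438.4 CPM in the PBS libraries in the same order. The GA libraries measured 409.3, 412.1, 448.8, 462.7 and 437.3 CPM. Both libraries of prefix 394 lay below every PBS library, whereas the 3 of prefix 400 lay within the PBS range. Means were 454 ± 19.0 CPM with PBS and 434 ± 23.1 CPM with GA (SD, n = 5 each), from 13659 to 18022 reads. The log2 fold change was -0.07 (SE 0.06, 95% interval -0.19 to 0.06, adjusted *P* = 0.929 by edgeR's quasi-likelihood test), and the two-sided exact permutation test gave *P* = 0.167. Mouse CD33 differs from the human receptor in its signalling tail, so the gene is a partial stand-in for the human risk gene.

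*Siglece* measured 106.6, 103.1, 93.03, 129.6 and 106.1 CPM in the PBS libraries. The GA libraries measured 105.2, 111.4, 110.9, 102.8 and 98.92 CPM, all within the PBS range, which 388_3 and 388_4 bounded. Means were 108 ± 13.4 and 106 ± 5.34 CPM (SD, n = 5 each). The log2 fold change was -0.02 (SE 0.08, 95% interval -0.20 to 0.15, adjusted *P* = 0.978 by edgeR's quasi-likelihood test), and the two-sided exact permutation test gave *P* = 0.857. Without 388_4 the log2 fold change turned to 0.0508. *Siglece* is also expressed by neutrophils and monocytes, so markers of both were summed. The summed level of 9 neutrophil markers was 36.1 to 424.5 CPM in PBS and 9.76 to 161 CPM in GA libraries, lower for 7 of the 7 tested, 6 of them at an unadjusted *P* under 0.05 (3.17% of all genes were lower at that level) and 0 after adjustment by edgeR. That of 7 monocyte markers was 28.95 to 87.84 CPM in PBS and 31.05 to 45.42 CPM in GA libraries, with 6 of 6 tested lower, 4 at an unadjusted *P* under 0.05 and 0 after adjustment. The ranges of both sums overlapped between the groups, and the monocyte sums of all 5 GA libraries lay within the PBS range. No neutrophil or monocyte marker was at 0 in all libraries. Across the 10 libraries the relation of *Siglece* was r = 0.03 with the neutrophil sum (Pearson's, permutation *P* = 0.94) and r = 0.295 with the monocyte sum (permutation *P* = 0.40), neither past the threshold.

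*Siglecf* measured 50.93, 62.27, 73.57, 50.47 and 80.55 CPM in the PBS libraries. In the GA libraries it measured 77.17, 49.49, 76.08, 77.43 and 68.38 CPM. Of the GA libraries 394_2 was lowest, below all PBS libraries, and the other 4 lay in the upper part of the PBS range. Means were 63.6 ± 13.4 and 69.7 ± 11.9 CPM (SD, n = 5 each), the log2 fold change was 0.13 (SE 0.15, 95% interval -0.18 to 0.45, adjusted *P* = 0.945 by edgeR's quasi-likelihood test), and the two-sided exact permutation test gave *P* = 0.444. Without 388_1 or 388_4 the log2 fold change was 0.06, and without 388_5 or 394_2 it was 0.24 and 0.23. Eosinophil markers summed to 1.05 to 4.32 CPM over 7 genes in PBS and 1.63 to 4.22 CPM in GA libraries. Of that sum 96.6% came from *Ccr3*, and the defining *Prg2*, *Ear1*, *Ear6* and *Il5ra* had 0 counts in all libraries, which allows up to 3 counts in each.

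*Siglecg* measured 10.89, 12.4, 10.9, 9.977 and 7.199 CPM in the PBS libraries and 11.99, 10.02, 8.579, 10.9 and 13.12 CPM in the GA libraries. The groups overlapped, with 400_3 highest and 388_5 lowest. Means were 10.3 ± 1.93 and 10.9 ± 1.75 CPM (SD, n = 5 each) from 254 to 510 reads, with a log2 fold change of 0.09 (SE 0.16, 95% interval -0.25 to 0.43, adjusted *P* = 0.969 by edgeR's quasi-likelihood test) and *P* = 0.579 in the two-sided exact permutation test. Single libraries moved the log2 fold change, to -0.01 without 388_5, 0.01 without 400_3, 0.05 without 394_1, and 0.17 without either 388_2 or 400_1. In the gene model 1.88% of its 100-base windows also occur in *Gm29791*, which had 0 counts in every library. A 100-base read of such a window fits both genes, so this 0 does not show how far *Gm29791* adds to *Siglecg*.

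*Siglec1* measured 7.694, 6.036, 3.512, 15.0 and 5.3 CPM in the PBS libraries, from as few as 115 reads. The GA libraries measured 4.945, 7.747, 8.29, 14.49 and 9.956 CPM. One library in each group stood high, 388_4 with PBS and 400_2 with GA, and all 5 GA values lay within the PBS range. Means were 7.51 ± 4.45 and 9.09 ± 3.52 CPM (SD, n = 5 each). The log2 fold change was 0.28 (SE 0.35, adjusted *P* = 0.951 by edgeR's quasi-likelihood test), and its 95% interval of -0.46 to 1.02 allows folds from 0.726 to 2.02. The two-sided exact permutation test gave *P* = 0.429. Its coefficient of variation was 59.2% with PBS and 38.8% with GA, the highest of the 7 genes, where the median over all genes tested was 16.6% and 12.2%. Leaving out a library, the log2 fold change was 0.69 without 388_4, 0.05 without 400_2, 0.10 without 388_3, 0.18 without 388_5 and 0.43 without 394_1.

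*Cd22* varied more among the GA libraries than among the PBS libraries. The PBS libraries measured 40.62, 41.32, 43.73, 48.86 and 46.28 CPM. Among the GA libraries, 394_1 and 394_2 measured 35.54 and 39.83 CPM and 400_1, 400_2 and 400_3 measured 53.84, 68.54 and 45.61 CPM. Both libraries of prefix 394 thus lay below every PBS library, 400_1 and 400_2 lay above every PBS library, and 400_3 lay among them. Means were 44.2 ± 3.44 CPM with PBS and 48.7 ± 13.1 CPM with GA (SD, n = 5 each), a coefficient of variation of 7.8% against 26.8%. The log2 fold change of GA against PBS was 0.14 (SE 0.15, 95% interval -0.17 to 0.45, adjusted *P* = 0.943 by edgeR's quasi-likelihood test), and the two-sided exact permutation test gave *P* = 0.595. Without 400_2 the log2 fold change was -0.01, and without 394_1 it was 0.24. An antisense gene, *Gm29439*, shares 479 exon bases with *Cd22* and had 0 to 3 counts per library. Reads of the shared bases cannot be told apart by strand, so this count does not show how far *Gm29439* adds to *Cd22*.

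**Figure D2:**
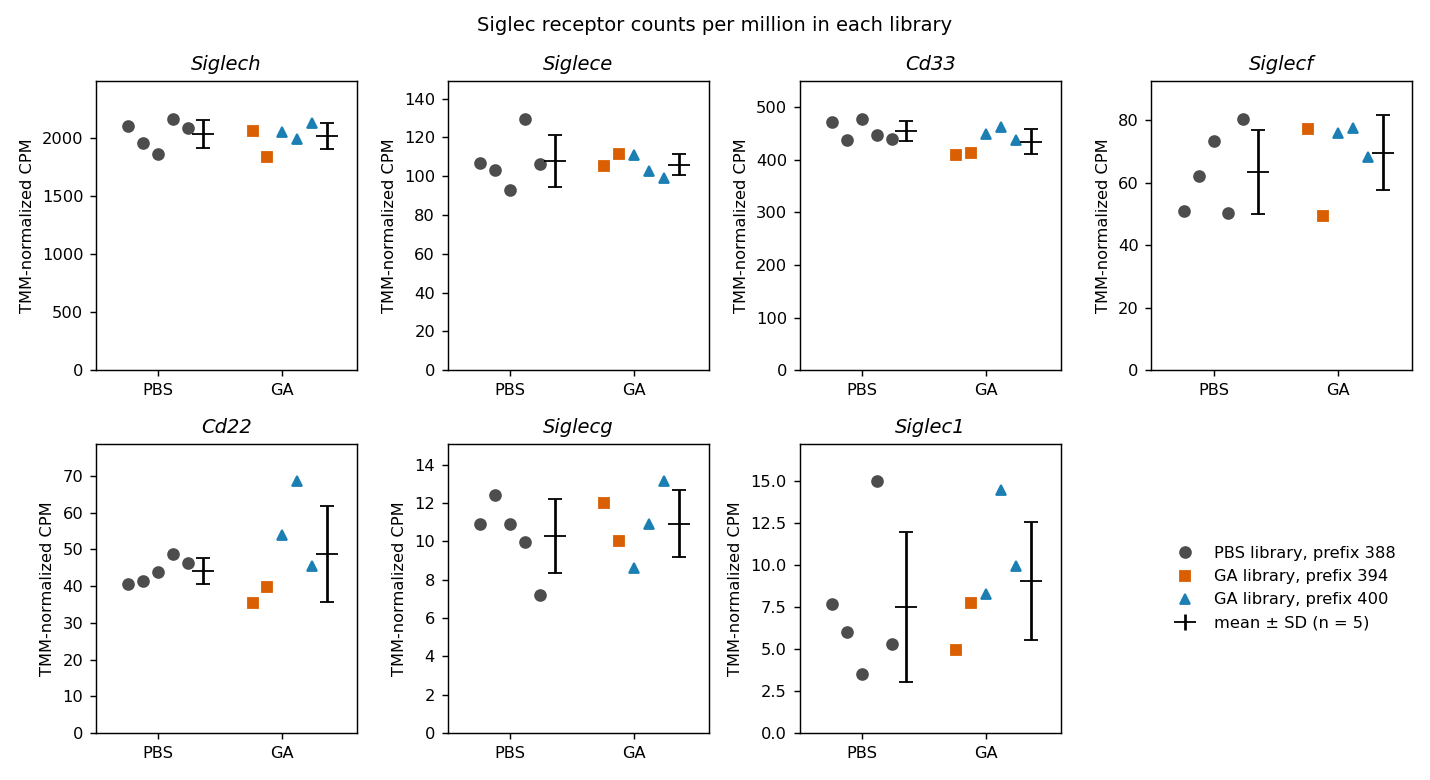
TMM-normalized CPM of each Siglec receptor in the 10 libraries, one panel per gene with its own axis starting at 0, PBS libraries left and GA libraries right, symbols for title prefix and bars for mean ± SD (n = 5). The groups overlap in every panel, and for *Cd22* the prefix 394 libraries (35.54 and 39.83 CPM) lie below and the prefix 400 libraries (45.61 to 68.54 CPM) within or above the PBS range.

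Because the title prefix is the only other label that separates the GA libraries, its 3 and 2 libraries were compared in a model with 3 groups. *Cd22* averaged 56.0 CPM in the prefix 400 libraries and 37.7 CPM in the prefix 394 libraries, a log2 difference of 0.57 (SE 0.16, unadjusted *P* = 0.00292, adjusted *P* = 0.491 by edgeR's quasi-likelihood test). It did not pass after adjustment, and was the only member with an unadjusted *P* under 0.05 in this contrast. Over all genes 2 of 14481 were called, 0.0138%, *Myc* and *Fkbp5*, both lower with prefix 400, and 793 or 5.48% had an unadjusted *P* under 0.05. With *Cd22*, 3 of the 7 members did not overlap between the prefixes, beside 27.7% of all genes tested (4006 of 14481). The others of these 3, *Cd33* and *Siglec1*, were at 409 to 412 against 437 to 463 CPM and 4.95 to 7.75 against 8.29 to 14.5 CPM, with adjusted *P* = 1 for both. The remaining 4 overlapped.

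Set against PBS one prefix at a time, *Cd22* was higher by a log2 fold change of 0.35 with prefix 400 (SE 0.13, unadjusted *P* = 0.0165, adjusted *P* = 0.649 by edgeR's quasi-likelihood test). With prefix 394 it differed by -0.22 (SE 0.12, adjusted *P* = 1 by the same test). *Siglec1* gave 0.55 with prefix 400 and -0.23 with prefix 394, *Siglech* 0.02 (SE 0.07) and -0.06 (SE 0.09), and *Siglece* -0.04 (SE 0.10) and 0.02 (SE 0.12), none called. The values of *Siglech* and *Siglece* lay within 1 SE of 0 with either prefix, and those of *Siglec1* had SEs of 0.37 and 0.45. The direct contrast of the prefixes gave an adjusted *P* of 1 for these 3 genes by edgeR's quasi-likelihood test, so no difference between prefixes was shown for them. *Cd33* gave -0.01 and -0.14 and *Siglecg* 0.09 and 0.11 in the same order. *Siglecf* gave 0.22 with prefix 400 and 0.0013 (SE 0.21) with prefix 394, a value near 0.

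**Figure D3:**
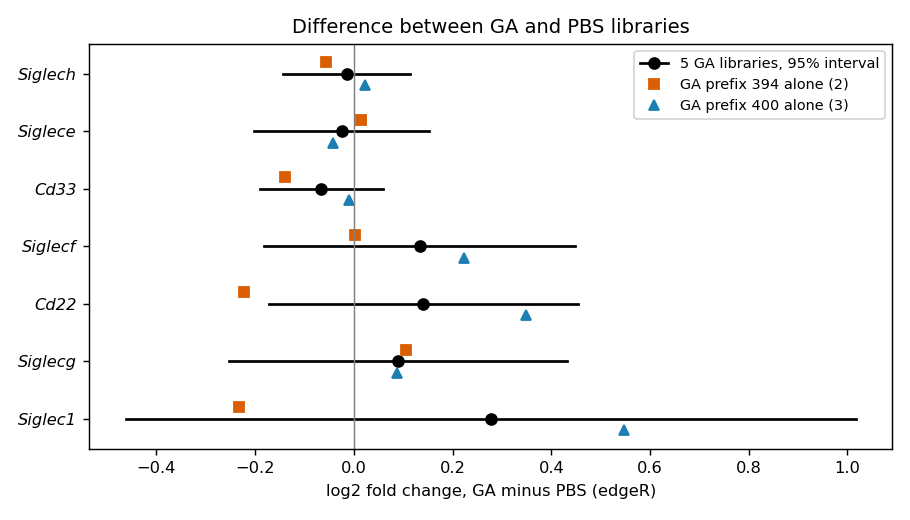
log2 fold change of GA against PBS for each receptor from edgeR, with 5 GA libraries (circle, line for the 95% interval) and with the GA libraries of prefix 394 alone (square, 2 libraries) or 400 alone (triangle, 3 libraries). Every interval drawn, from the 5 GA libraries, spans 0, and *Cd22* (-0.22 and 0.35) and *Siglec1* (-0.23 and 0.55) lie farthest apart between prefixes.

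The other 2 genes of the mouse family were looked at beside the members. *Mag*, the myelin-associated glycoprotein of oligodendrocytes (chr7:30899176-30914873, minus strand), had 35.8 ± 5.08 CPM with PBS and 38.04 ± 3.40 CPM with GA (SD, n = 5 each), a log2 fold change of 0.09 (SE 0.10, adjusted *P* = 0.949 by edgeR's quasi-likelihood test). *Siglec15*, a receptor of osteoclasts, had 0 counts in all 10 libraries, which allows up to 3 counts in each, and was not tested.

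Most members are also made by other cells that could be carried over in a sort, so their levels were set beside marker lists over the 10 libraries on a log2 scale, 12 relations in all. None passed after Benjamini-Hochberg adjustment. The relation of *Siglec1* with the sum of 10 border-associated macrophage markers had the lowest unadjusted *P* (Pearson's r = 0.65, permutation *P* = 0.0418, Spearman's rho = 0.61, *P* = 0.067, adjusted *P* = 0.304 for r and 0.448 for rho). That sum was 349 to 703 CPM in PBS and 408 to 659 CPM in GA libraries, all 10 markers were tested and 8 were lower with GA, none called. The scavenger receptor *Stab1* made up 78.1% of the sum. In an alternative chosen after seeing the data, the 9 other markers summed to 260 CPM in 388_4 and 199 CPM in 400_2, the same libraries that were highest for *Siglec1*, and to 50.2 to 152 CPM elsewhere. With these 9 the relation was r = 0.61 (permutation *P* = 0.063) and without those libraries r = 0.03, so it rests on them, whereas without the 2 libraries farthest in the whole list r was 0.50. The part of such cells in the level of *Siglec1* was not tested. *Siglec1* is also inducible by interferon, and the summed interferon response genes were 100.5 to 174.5 CPM in PBS and 87.94 to 291.5 CPM in GA libraries. Of these 10 genes 10 were higher with GA, 0 of them at an unadjusted *P* under 0.05. The sum was high in 400_2 and 400_3 (238.1 and 291.5 CPM), whereas both libraries of prefix 394 (96.62 and 87.94 CPM) lay below every PBS library. Its relation with *Siglec1* was r = 0.29 (permutation *P* = 0.414), turning to -0.43 without 400_2 and 400_3.

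*Cd22* was set beside 10 genes of the disease-associated microglia program, which summed to 5803 to 8876 CPM with PBS and 7315 to 10549 CPM with GA and consisted to 75.9% of *Apoe*. Of these 10 genes 7 were higher and 3 lower with GA, 2 at an unadjusted *P* under 0.05 (5.75% of all genes) and 0 called. The relation was r = 0.65 (permutation *P* = 0.0507, rho = 0.60, *P* = 0.0747, adjusted *P* = 0.304 for r), and fell to 0.22 without 388_1 and 400_2, so it rests on those libraries. For *Cd22* and *Siglecg*, the genes best known from B cells, the 8 B cell markers summed to 565 to 671 CPM with PBS and 539 to 673 CPM with GA. Of that sum 96.5% was *Ighm*, and *Cd79b*, which encodes a chain of the B cell receptor, had 21.95 ± 3.81 CPM with PBS and 19.7 ± 3.81 CPM with GA (SD, n = 5 each), while *Cd79a*, *Ms4a1*, *Pax5*, *Blk* and *Fcer2a* each averaged below 1 CPM. The relations with that sum were r = 0.16 for *Cd22* and 0.39 for *Siglecg* (permutation *P* = 0.684 and 0.268). *Siglech*, which plasmacytoid dendritic cells also express, gave r = 0.29 with their 6 markers (permutation *P* = 0.408), which summed to 18.8 to 29 CPM in all 10 libraries. *Pacsin1* made up 56.7% of that sum, and *Ly6d*, *Klk1* and *Cd209d* stayed below 1 CPM in every library. The remaining relations, over *Siglece*, *Siglecf*, *Siglech* and *Cd33*, had adjusted *P* of at least 0.454, and no value is given within a single prefix, which holds 2, 3 or 5 libraries.

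**Figure D4:**
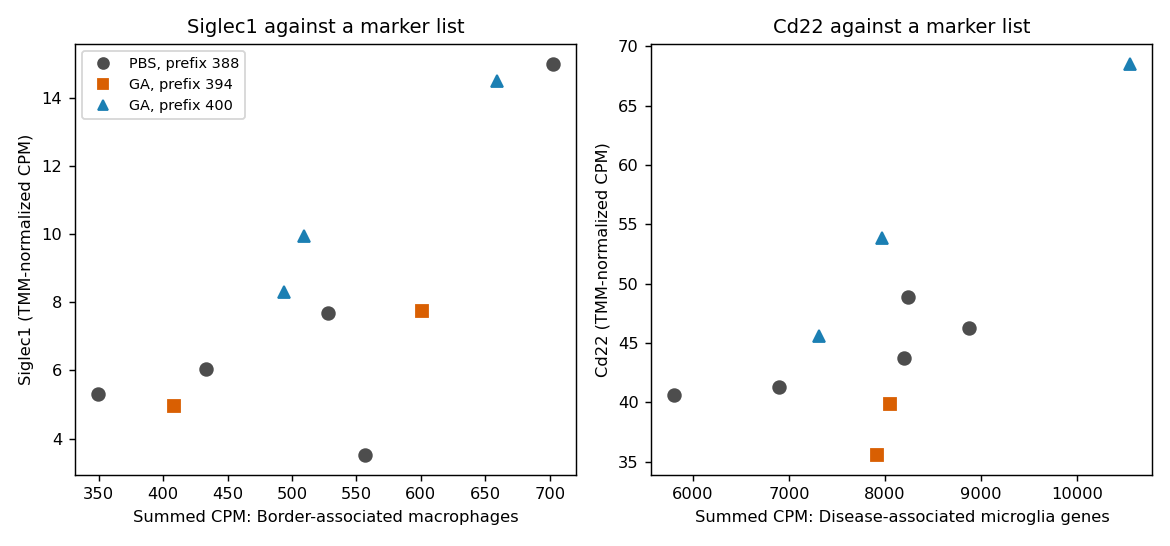
Left, *Siglec1* CPM against the summed CPM of border-associated macrophage markers, and right, *Cd22* CPM against the summed CPM of disease-associated microglia genes, one point per library with symbols for title prefix. The 2 libraries highest for *Siglec1* (15.0 and 14.49 CPM) are also the 2 highest on the macrophage sum (703 and 659 CPM).

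The signalling partners and the sialic acid that the receptors read were followed in a list of 48 genes, of which 38 were tested. Among them 18 were higher and 20 lower with GA, the median log2 fold change was -0.01 and 0 were called. At an unadjusted *P* under 0.05 there were 3, or 7.895% beside 5.75% of all genes. *Tyrobp*, which encodes DAP12, had 991 ± 104 CPM with PBS and 1059 ± 44.2 CPM with GA (SD, n = 5 each), a log2 fold change of 0.10 (SE 0.07, adjusted *P* = 0.910 by edgeR's quasi-likelihood test). Its level of 1537 ± 125 RPKM (SD, n = 10) was above that of *Siglech*, its receptor partner.

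Downstream of the inhibitory members, *Ptpn6*, which encodes SHP-1, had 574 ± 30.5 CPM with PBS and 616 ± 38.8 CPM with GA (SD, n = 5 each), a log2 fold change of 0.10 (SE 0.06, adjusted *P* = 0.895 by edgeR's quasi-likelihood test). *Ptpn11*, which encodes SHP-2, had 21.6 ± 5.52 and 21.9 ± 1.86 CPM. *Inpp5d*, the lipid phosphatase SHIP1, had 1303 ± 57.5 and 1330 ± 108 CPM, and the kinase *Lyn*, which phosphorylates ITIMs, had 796 ± 58.2 and 788 ± 64.3 CPM (SD, n = 5 each). None of these was called.

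On the ligand side, *Cmas*, which activates sialic acid for transfer, had 183 ± 10.02 and 180 ± 5.54 CPM with PBS and GA (SD, n = 5 each). *Cmah*, which makes the hydroxylated form of sialic acid found in mice, was near the detection limit with 0 to 57 counts per library. Of 20 sialyltransferases 12 were tested, and *St6gal2*, *St6galnac1* and *St8sia2* had 0 counts in all libraries. *St3gal6*, which adds α2,3-linked sialic acid, was at 289 ± 24.8 CPM with PBS and 260 ± 9.75 CPM with GA (SD, n = 5 each), with 4 of 5 GA libraries below every PBS library. Its log2 fold change of -0.15 (SE 0.07) had an unadjusted *P* of 0.0368 and an adjusted *P* of 0.854 by edgeR's quasi-likelihood test. The other genes at an unadjusted *P* under 0.05 were the sialylated glycoproteins *Spn* (CD43, log2 fold change 1.17, SE 0.48) and *Cd24a* (-1.80, SE 0.71), a ligand of Siglec-G, both with adjusted *P* = 0.854 and resting on 7 to 46 and 3 to 85 counts per library. Neither passed the adjustment. The sialidase *Neu1* had 138 ± 11.2 and 136 ± 6.51 CPM (SD, n = 5 each).

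**Figure D5:**
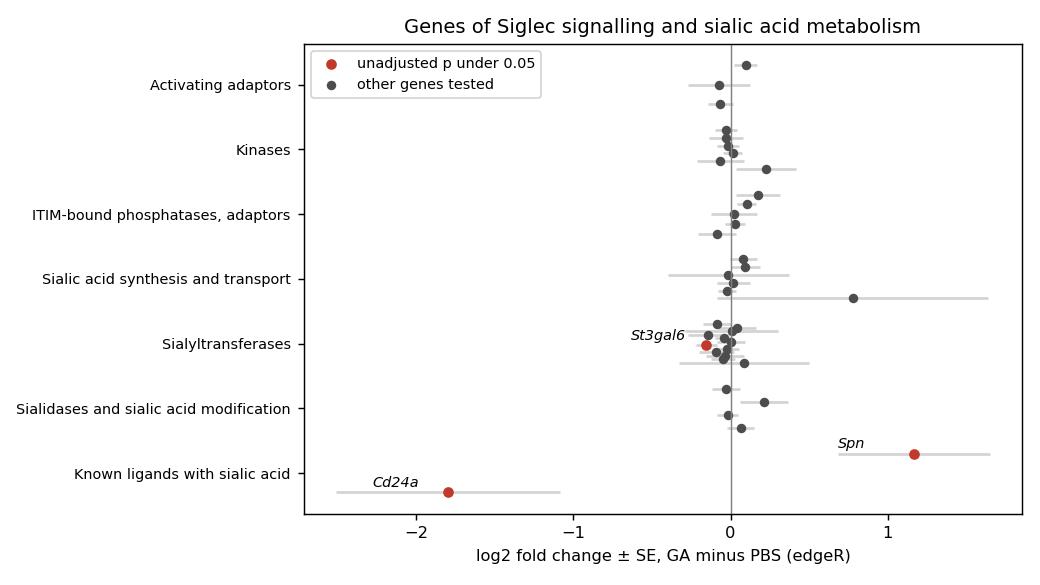
log2 fold change ± SE of GA against PBS from edgeR for the 38 tested genes of Siglec signalling and sialic acid metabolism, one point per gene grouped by role, with red points for an unadjusted *P* under 0.05. Most points lie close to 0, and *Cd24a*, *Spn* and *St3gal6* are the 3 in red.

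The genes whose pattern over the 10 libraries was most like that of each member were listed by Pearson's r of log2 CPM among 12172 genes averaging at least 1 CPM, as a description, since with so many genes and 10 libraries that share amplification and depth a high r arises easily. For *Siglech* they were *Eif2s2* (r = 0.93), *Gm3375* and *Tmem100*, and for *Cd33* *Il21r* (r = 0.94), *A730017L22Rik* and *Mdm1*. For *Siglece* they were *Rcc1* (r = 0.95), *Rictor* and *Mfap3*, and for *Siglecf* *Wdr82* (r = 0.97), *Tirap* and *C1galt1c1*. *Siglecg* was most like *Rbck1* (r = 0.92), *Xndc1* and *Myo1g*, *Cd22* like *Tmem178* (r = 0.86), *Chst1* and *Ddi2*, and *Siglec1* like *Fam217b* (r = 0.93), *Jarid2* and *2610507B11Rik*. No member was among the 3 genes most like another member.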

How the data were processed

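RNA of sorted microglia from 10 libraries was used, 5 per treatment, with groups taken from the treatment label. The authors deposited raw counts of reads per gene, without normalization, and 0 columns were left without a sample. The submitters' processing notes name bcl2fastq 2.19.0, fastp 0.20.0, STAR 2.7.0f, Subread 1.6.4 with featureCounts, DESeq2 and build GRCm38.p6. The annotation release and strand setting are not given in the sources used here, and the NexteraXT kit does not mark strand, so reads of antisense genes cannot be separated. Precision from counts covers counting error only, since amplified reads are not independent molecules.

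The members and gene lists were chosen with earlier results of these data known. Named genes were the members, the other 2 family genes, the pathway list, marker genes set beside a member (1 of them is not reported here), and the 3 genes most like each member. Genes called by a tool were named after their values were seen. Counts were analysed with edgeR 4.0.16 in R 4.3.3 (filterByExpr minimum count 10, TMM, quasi-likelihood F-test without covariate, Benjamini-Hochberg adjustment over 14481 genes, threshold 0.05). Single genes were also compared by exact permutation on log2(CPM + 0.1). Relations used 100000 resamples. The likeness values used log2 CPM with a prior count of 2. RPKM and positions used GENCODE M21, in which 54402 of 55453 symbols matched 1 gene, and RefSeq promoters matched 7 family genes. The fitting script was tested on simulated counts.

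Alternatives were DESeq2 1.42.0, limma-voom (limma 3.58.1), DESeq2 size factors, library totals, other filters, a pseudocount of 1 CPM, each library left out, either GA prefix alone and longest transcript lengths. A macrophage list without *Stab1* was added after seeing the data. The 45 pairs of libraries differed by chi-square per degree of freedom of 13 to 50.9, so none was a copy. Python 3.11.15, scipy 1.17.1 and matplotlib 3.10.9 were used.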

Additional observations from a re-analysis of the deposited data

How the results depend on the processing

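No Siglec receptor passed the adjusted threshold under any alternative run, with adjusted *P* from 0.649 upward over the edgeR, limma-voom and DESeq2 fits. With all 10 libraries every member kept its direction over the other tools, scalings and filters. DESeq2 with its defaults called 2 genes instead of 0. With the 2 GA libraries of prefix 394 alone the direction turned for *Siglec1* (-0.23), *Siglece* (0.0153) and *Cd22* (-0.22), and with the 3 of prefix 400 alone for *Siglech* (0.0230). Leaving out each library in turn gave 0 to 1 genes called (*Gm15920* without 394_1), and log2 fold changes of -0.0448 to 0.0183 for *Siglech* (turned without 388_4 or 394_2), -0.0724 to 0.0508 for *Siglece* (without 388_4), -0.0107 to 0.1692 for *Siglecg* (without 388_5), -0.0096 to 0.2354 for *Cd22* (without 400_2), 0.05 to 0.69 for *Siglec1*, -0.08 to -0.04 for *Cd33* and 0.06 to 0.24 for *Siglecf*. The mean log2 difference of the exact permutation test ranged from -0.0461 to 0.0195 for *Siglech*, -0.0682 to 0.0513 for *Siglece* (turned also without 400_3), -0.0263 to 0.1774 for *Siglecg* and -0.0289 to 0.2075 for *Cd22*. The cause of these turns was not tested. Without the 2 libraries farthest from the list median, r became -0.43 for *Siglec1* with interferon response genes, -0.51 for *Siglecf* with eosinophil markers and -0.21 for *Siglech* with plasmacytoid dendritic cell markers. The longest transcript length, shorter by construction, gave 882 RPKM for *Siglech*, 77.5 for *Cd33*, 2.655 for *Siglecg* and 11.7 for *Cd22*. With 5 libraries a group the least precise value among the 7 members was *Siglec1*, with 115 to 553 reads per library. No paired analysis was possible because the title numbers were given within prefixes that each hold a single treatment.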
